A study of Mus musculus with 9 samples.

Results

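The BCL2 family decides whether the outer membrane of the mitochondrion stays intact, and its survival and death genes were followed here in mouse macrophages in which the transcription factor NFAT5 had been knocked down or titrated by a decoy. The 10 genes were taken by symbol from the platform annotation, 5 that protect cells (Bcl2a1b, Bcl2a1d, Mcl1, Bcl2l1 and Bcl2l2) and 5 that kill them (Bcl2l11, Bax, Bak1, Bid and Bad). Every probe with 1 of these symbols was included, which gave 21 of the 45281 probes on the array, 13 of protective and 8 of killing members. They covered 9 of the 10 genes. Bax, a pore-forming killer, had no probe under its symbol in the annotation used and was not analysed here.

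Protective members such as MCL1, BCL-XL (the product of Bcl2l1), BCL-W (Bcl2l2) and the A1 proteins (Bcl2a1b and Bcl2a1d) bind and hold back the killers. BAK1 and BAX make holes in the outer mitochondrial membrane, through which cytochrome c escapes and switches on caspases. BIM (Bcl2l11), BID and BAD carry only the short BH3 stretch and act upstream, by engaging the protectors or the pore-formers. In haematopoietic cells A1 is known as a target of inflammatory NF-κB signalling, and MCL1 as a short-lived protein that myeloid cells need to survive. NFAT5 is known for switching on genes in high salt and, in macrophages, for a part in inflammatory gene expression.

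RNA from RAW264.7 cells, a mouse macrophage line, was hybridised to Illumina bead arrays in 3 groups of 3 samples. The control cells were labelled as having had no treatment. The knock-down cells were a stable line that expressed a hairpin (shRNA) directed at the Nfat5 transcript. The decoy cells had been transfected, stably according to the design text, with oligonucleotides that carry the NFAT5 consensus site and so compete for the protein. All 3 groups were grown in the same medium with serum and antibiotics. Cells with a hairpin or oligonucleotide of unrelated sequence were not analysed here, so the effect of transfection itself cannot be told apart from that of less NFAT5 activity. The labels do not say whether a group came from 1 clone or a pool, or whether its samples were separate cultures. The p-values therefore reflect only how far the samples of a group scattered, and part or all of that scatter may be technical.

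In the treated arrays the upper part of the signal was lower than in the control arrays, while the median was level with control or higher. The raw median was 150 to 158 units in control, 172 to 187 in knock-down and 156 to 167 in decoy samples. The upper quartile of raw intensity ranged from 319 to 336 units in control, from 209 to 257 in knock-down and from 214 to 237 in decoy samples. The median SD of a probe within a group, on the log2 scale, was 0.09 in control, 0.22 in knock-down and 0.19 in decoy samples. The brightest Nfat5 probe (ILMN_2612448) fell 2.04-fold in the knock-down (adjusted p = 2.49e-05, limma) and 1.40-fold in the decoy samples (adjusted p = 0.0112). A dimmer Nfat5 probe (ILMN_2735633) was 1.56-fold and 1.65-fold higher after normalisation, while its raw intensity was 625 to 752 units in control, 390 to 596 in knock-down and 509 to 640 in decoy samples. Of 10 macrophage markers, 9 had a probe. Csf1r, Lyz2, Cd14 and Spi1 were above background on all 9 arrays, and Itgam and Mrc1 on none. Csf1r, the receptor for the macrophage growth factor, was called lower in both comparisons (log2 differences -1.38 and -0.96), as were Adgre1 (-0.54 and -0.73) and Spi1 (-0.93 and -0.73), and all 3 were also called lower in both when arrays were scaled to a common median. Lyz2 was called higher in both (1.12 and 1.09), and with that scaling in the decoy comparison only (0.34 and 0.40). Fcgr1 was called higher and Mrc1 lower with the decoy only (0.73 and -0.46), and Cd14, Itgam and Ptprc were not called. With arrays scaled to a common median, Fcgr1 was instead called lower in the knock-down (-1.045) and was not called with the decoy (0.0062). Mrc1 was then still called lower with the decoy only (-0.415). The summed normalised intensity of the 9 probed macrophage markers was 54510 to 57310 in control, 79460 to 94560 in knock-down and 85530 to 88510 in decoy samples. That sum was taken off the log scale, so the brightest probes weigh most in it. It does not show how many markers rose or fell. What part these markers have in the family's differences was not tested. Of the markers of T cells, B cells, fibroblasts, epithelium and neutrophils that had a probe, none was above background on all 9 arrays.

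After normalisation, the largest differences in the family were falls of 3 protective transcripts. Bcl2a1b, Bcl2a1d and Mcl1 fell in both treated groups, by 9.09-fold, 6.32-fold and 2.76-fold with the hairpin and by 8.17-fold, 5.57-fold and 1.98-fold with the decoy. The killers Bak1 and Bid also fell in both groups, by less than 2-fold on this scale and by more when arrays were scaled to a common median. A pair of members rose: Bcl2l2 in both groups and Bcl2l11 in the knock-down, and neither rise was called when arrays were scaled to a common median. Bad was not called in either comparison, and the brightest Bcl2l1 probe was not called either. A difference was called where its p in limma, adjusted by Benjamini-Hochberg, was below 0.05, with the adjustment over all 27062 probes that were above their array's median on at least 3 arrays.

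Of the 21 probes, 20 passed that filter. The probe left out belonged to Bcl2l1 (ILMN_1255430) and exceeded the array median on 1 array, while the member just inside the limit, a Bcl2l2 probe (ILMN_2551387), did so on 4 arrays. In knock-down against control 12 of the 20 probes were called, 4 higher and 8 lower, where 46.5% of all probes were called, 22.6% higher and 23.9% lower. In decoy against control 9 of the 20 were called, 2 higher and 7 lower, where 34.3% of all probes were called, 16.1% higher and 18.2% lower. With so large a part of the array changed, the number of family probes called is by itself no result about the family. The 3 arrays of each group did not overlap for 12 of the 20 probes in the knock-down comparison and for 15 in the decoy comparison, against 58.8% and 54.8% of all probes. By the brightest probe of each gene, the median log2 difference of the 5 protective members was -1.47 for the knock-down and -0.98 for the decoy comparison. Those medians are the values of Mcl1 itself. They count the A1 copies Bcl2a1b and Bcl2a1d as 2 of the 5 members, though the signals of the copies may not be independent. How far the medians rest on that was not tested. The 4 measured killers had medians of -0.17 and -0.49, and the medians over 13716 genes were 0.08 and 0.04. Over all kept probes the medians lay nearer to 0, at -0.37 and -0.32 for the 12 protective probes and at 0.06 and -0.07 for the 8 killer probes, against 0.01 in both comparisons for all 27062 probes. Both comparisons used the same 3 control samples.

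**Figure D1:**
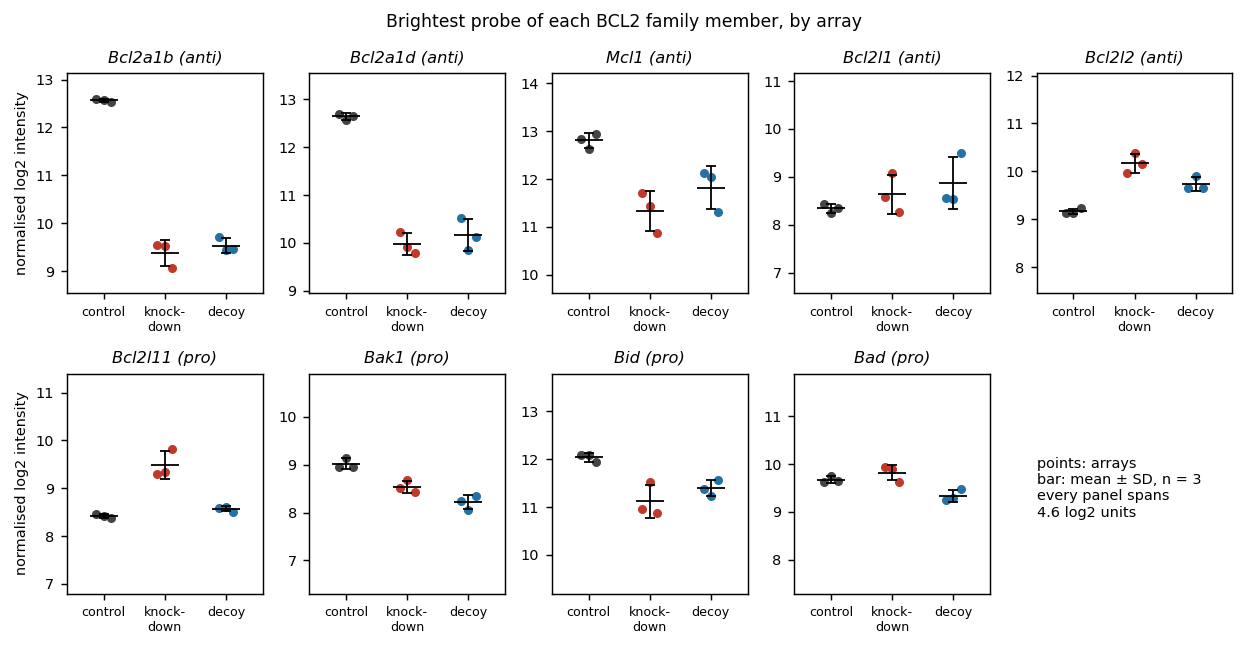
Normalised log2 intensity of the brightest probe of each of the 9 measured members, with 1 point for each array, the group mean as a bar and its SD as whiskers, and with every panel spanning the same number of log2 units. Bcl2a1b, Bcl2a1d and Mcl1 lie far lower in both treated groups than in control, while Bcl2l11 stands higher in the knock-down group than in the other groups.

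Bcl2a1b encodes an A1 protein, a small protector expressed in blood cells. The raw intensity of its probe (ILMN_2660263) was 9658, 10231 and 9851 units in the control samples. It was 800, 574 and 342 units in the knock-down and 829, 649 and 540 units in the decoy samples. All 6 treated arrays thus read far below the dimmest control array. On the normalised log2 scale the mean was 12.56 ± 0.036 (SD, n = 3) in control, 9.38 ± 0.27 in knock-down and 9.53 ± 0.15 in decoy samples. The log2 difference was -3.18 ± 0.15 (SE) in the knock-down (adjusted p = 7.63e-09, limma) and -3.03 ± 0.15 in the decoy comparison (adjusted p = 2.04e-08, limma). Among 27062 probes this was the ninth lowest difference in the knock-down and the second lowest in the decoy comparison. Its call held in all 20 alternative settings, with log2 differences from -4.32 to -3.02 in the knock-down and from -3.92 to -2.93 in the decoy comparison, the lowest of each with arrays scaled to a common median. Some of these settings could not move the value. As the gene has 1 probe, taking its brightest probe or its mean left the knock-down difference at -3.18.

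Bcl2a1d is a second copy of the A1 gene. Its brightest probe (ILMN_2660555) read 10454, 10196 and 10825 units in control, 1291, 729 and 492 in knock-down and 1437, 858 and 811 in decoy samples. Both treated groups again lay wholly below the control group. The log2 level was 12.64 ± 0.067 (SD, n = 3) in control, 9.98 ± 0.23 in knock-down and 10.17 ± 0.33 in decoy samples. The fall had an adjusted p of 4.55e-08 with the hairpin and 2.47e-07 with the decoy (limma). Its log2 differences were -3.81 and -3.37 under a scaling of arrays to a common median, and -1.89 and -1.81 with both Bcl2a1d probes averaged. A dimmer Bcl2a1d probe (ILMN_3006505), at 728 to 801 units in control, also fell, by 2.16-fold (adjusted p = 1.83e-05) and 2.20-fold (adjusted p = 3.01e-05). It was above background on 1 of 3 knock-down and 2 of 3 decoy arrays, so that its treated values sit near the limit of detection. The A1 copies are nearly identical, and the probe sequences were not used here, so signals of the copies may not be independent of each other.

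The promoter windows of the 3 protective genes that fell are shown because the decoy carries the binding site of a transcription factor, and because the A1 copies moved together. Each runs from 250 bases before to 50 bases after the annotated start, 5′ to 3′ on the strand of the gene, from RefSeq with the build GRCm38.p6, and capitals mark GAGGAAGT, a motif of the macrophage factor PU.1. The Bcl2a1b window lies at chr9:89199023-89199322 on the plus strand, that of Bcl2a1d at chr9:88731801-88732100 on the minus strand and that of Mcl1 at chr3:95658471-95658770 on the plus strand.
Bcl2a1b: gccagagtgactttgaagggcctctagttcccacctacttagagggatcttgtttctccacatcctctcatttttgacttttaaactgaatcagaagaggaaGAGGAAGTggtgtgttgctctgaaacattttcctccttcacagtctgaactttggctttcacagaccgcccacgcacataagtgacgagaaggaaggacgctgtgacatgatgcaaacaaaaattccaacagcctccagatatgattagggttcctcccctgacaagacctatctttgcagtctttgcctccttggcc
Bcl2a1d: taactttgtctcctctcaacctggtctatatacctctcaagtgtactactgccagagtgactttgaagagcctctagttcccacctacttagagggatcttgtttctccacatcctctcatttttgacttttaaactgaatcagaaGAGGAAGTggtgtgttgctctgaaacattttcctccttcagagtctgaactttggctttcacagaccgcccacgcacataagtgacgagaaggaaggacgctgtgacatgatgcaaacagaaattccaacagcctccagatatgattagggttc
Mcl1: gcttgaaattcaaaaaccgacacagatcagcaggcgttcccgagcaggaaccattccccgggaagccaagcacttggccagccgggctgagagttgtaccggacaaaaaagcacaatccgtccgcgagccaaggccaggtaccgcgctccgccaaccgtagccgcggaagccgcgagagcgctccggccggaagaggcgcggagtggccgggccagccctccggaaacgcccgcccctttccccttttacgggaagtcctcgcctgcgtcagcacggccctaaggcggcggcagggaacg
The windows of Bcl2a1b and Bcl2a1d aligned over 256 columns, of which 247 were identical (96.5%), 3 were mismatches and 6 were gaps. The PU.1 motif began 148 bases before the start in Bcl2a1b and 104 bases before it in Bcl2a1d, and was not found in Mcl1. It was found in 4 of the 14 windows annotated for the 10 members, those of Bcl2a1b, Bcl2a1d and Bak1 and 1 of Bad. After quantile normalisation Bad was called in neither comparison. Of 32851 windows of the same length, with both strands searched, 3.20% held the PU.1 motif. The core of the NFAT5 site, TGGAAA, was found in 0 of the 14 windows and in 21.4% of all windows. The longer NFAT5 consensus was found in 0 of 14 and in 4.96% of all windows. An AP-1 motif, TGANTCA, was found in 2 of the 14, those of Bcl2a1b and Bcl2a1d, and in 7.81% of all windows. It did not overlap the PU.1 motif. Because the Bcl2a1b and Bcl2a1d windows are near copies, their matches to either motif are not independent of each other. The NF-κB consensus was found in 1 of 14, a Bcl2l1 window, and in 8.46% of all windows, and TATAAA in 0 of 14 and in 13.6%. These matches describe letters in short windows and say nothing of binding. Spi1, the gene of PU.1, was itself called lower in both treated groups, as given above, and its part in the fall of the A1 genes was not tested. The motifs were chosen with the expression results known.

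Mcl1 encodes the short-lived protector MCL1. Its probe (ILMN_1216732) read 11632, 10682 and 12957 units in control samples. The knock-down samples read 3604, 1958 and 1001 units, and the decoy samples 4267, 3892 and 1786 units. All 6 treated arrays were below all 3 control arrays, and the treated groups overlapped each other. The log2 level was 12.81 ± 0.16 (SD, n = 3) in control, 11.34 ± 0.42 in knock-down and 11.82 ± 0.45 in decoy samples. The log2 difference was -1.47 ± 0.23 (SE) in the knock-down (adjusted p = 0.000107, limma) and -0.98 ± 0.23 in the decoy comparison (adjusted p = 0.00378, limma). Both calls held in all 20 alternative settings, with log2 differences of -2.58 and -1.85 when arrays were scaled to a common median. Mcl1 also has 1 probe, so the settings that take the brightest probe or the mean could not move its differences.

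**Figure D2:**
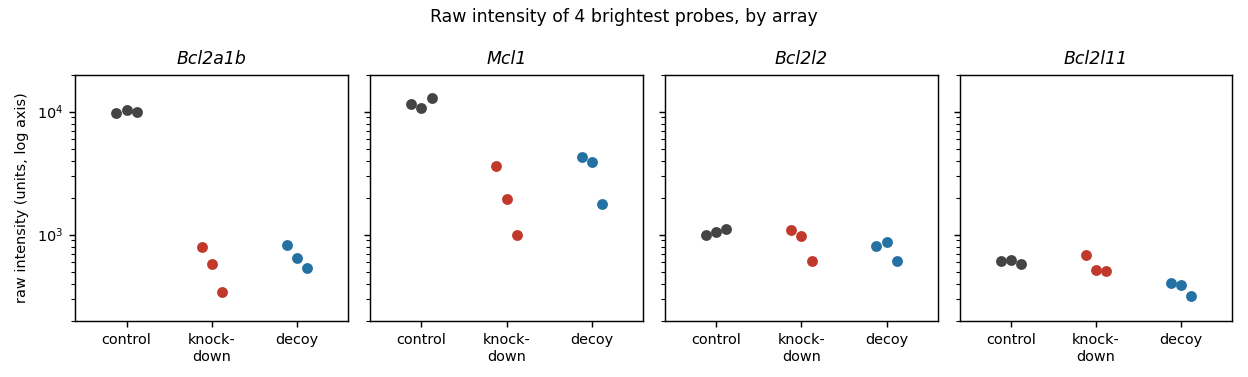
Raw intensity in units on a log axis for the brightest probes of Bcl2a1b, Mcl1, Bcl2l2 and Bcl2l11, with 1 point for each array in the control, knock-down and decoy groups. Bcl2a1b and Mcl1 are separated from control before any normalisation, while the raw values of Bcl2l2 and Bcl2l11 in the knock-down group, 609 to 1083 and 503 to 685 units, overlap those of control.

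Bcl2l1 encodes BCL-XL, a broadly expressed protector. Its brightest probe (ILMN_2698430) read 596, 537 and 569 units in control, 428, 447 and 248 in knock-down and 397, 374 and 551 in decoy samples. After normalisation its log2 level was 8.34 ± 0.10 (SD, n = 3), 8.64 ± 0.41 and 8.87 ± 0.54. The log2 differences of 0.30 (95% interval -0.21 to 0.81, adjusted p = 0.320, limma) and 0.53 (0.02 to 1.03, adjusted p = 0.1003, limma) were not called. Under median scaling, in which arrays are brought to a common median only, the knock-down difference was -0.78 and was called lower (adjusted p = 0.0254), so its sign depended on the scaling. A second Bcl2l1 probe (ILMN_2647885) was above background on 0 of 3 control, 0 of 3 knock-down and 2 of 3 decoy arrays. It was higher in the decoy samples by at least 1.66-fold (adjusted p = 0.0039, limma). It was also called higher in the knock-down (log2 difference 0.62, adjusted p = 0.0268), where no fold is given because neither group was above background. That call was lost in 6 of 17 alternative settings: without any 1 of the 3 control arrays or without knock-down replicate 3 (adjusted p up to 0.114), with the authors' deposited values (0.0513) and under median scaling (0.133). Probe ILMN_2742557 was not called in either comparison.

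Bcl2l2 encodes the protector BCL-W. Its brightest probe (ILMN_2636443) read 988, 1050 and 1108 units in control, 1083, 968 and 609 in knock-down and 804, 878 and 611 in decoy samples. The raw values of the knock-down group overlapped those of control, and those of the decoy group lay below. After quantile normalisation, which gives all arrays the same distribution, the log2 level was 9.16 ± 0.058 (SD, n = 3) in control, 10.17 ± 0.20 in knock-down and 9.73 ± 0.14 in decoy samples. On that scale Bcl2l2 rose 2.00-fold in the knock-down (adjusted p = 6.73e-05, limma) and 1.49-fold in the decoy comparison (adjusted p = 0.00739, limma). Under median scaling the log2 differences were -0.26 (adjusted p = 0.312) and -0.42 (adjusted p = 0.118), and neither was called.

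The other Bcl2l2 probes did not follow the brightest. A second probe above background on all 9 arrays (ILMN_2936517) had log2 differences of -0.05 (95% interval -0.37 to 0.27, adjusted p = 0.816) and -0.23 (-0.55 to 0.08, adjusted p = 0.240), and neither was called. Probe ILMN_1255755 was called lower in both comparisons, with log2 differences of -1.08 (adjusted p = 0.000608, limma) and -0.59 (adjusted p = 0.0370, limma). Probe ILMN_2601572 was called lower in the knock-down (log2 difference -0.44, adjusted p = 0.0267) and not in the decoy comparison (-0.40, adjusted p = 0.0511). Both of these were above background on the 3 control arrays and on no treated array, and no fold is given because the bound came out under 1. The decoy call of ILMN_1255755 was lost without any 1 control array or without decoy replicate 2 (adjusted p up to 0.159), and the knock-down call of ILMN_2601572 without any 1 control array or without knock-down replicate 2 (up to 0.0927). Probe ILMN_2551387 was above background on no array and was not called. Averaged over its probes, Bcl2l2 had log2 differences of -0.07 for the knock-down and -0.07 for the decoy comparison.

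**Figure D3:**
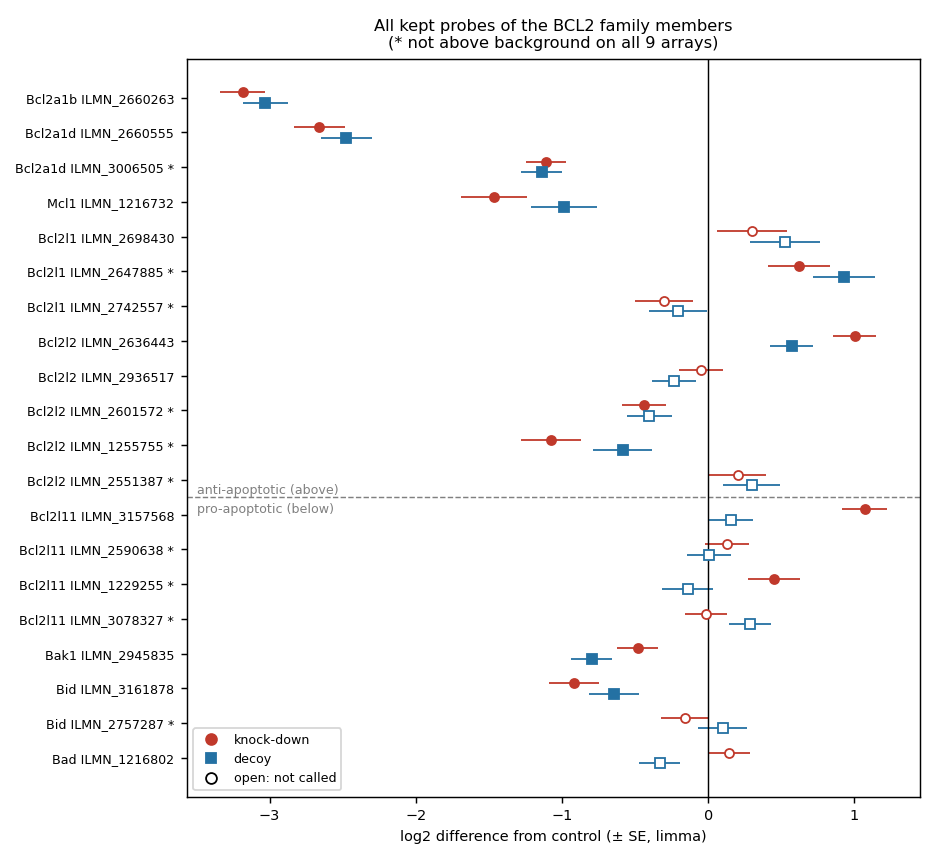
Log2 difference from control of all 20 kept probes of the 9 measured members, with SE from limma as whiskers, filled symbols for called and open symbols for uncalled differences, and an asterisk for probes not above background on all 9 arrays. The probes of the A1 genes and Mcl1 lie left of 0 in both comparisons, and the probes of Bcl2l2 lie on both sides.

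Bcl2l11 encodes BIM, a BH3-only activator of cell death. Its brightest probe (ILMN_3157568) read 607, 618 and 581 units in control samples. It read 685, 514 and 503 units in the knock-down samples and 405, 388 and 317 units in the decoy samples. In raw units the knock-down group overlapped control, and the decoy group lay below both. After normalisation the log2 level was 8.42 ± 0.046 (SD, n = 3) in control, 9.49 ± 0.29 in knock-down and 8.57 ± 0.054 in decoy samples. The knock-down samples were 2.10-fold higher than control (adjusted p = 6.15e-05, limma), and the decoy samples differed from control by 0.15 in log2 (95% interval -0.17 to 0.48, adjusted p = 0.459). Median scaling gave a knock-down difference of -0.11 (adjusted p = 0.609) and a decoy difference of -0.74, which was called lower (adjusted p = 0.0043). A dimmer Bcl2l11 probe (ILMN_1229255), above background on 3 control arrays and on 1 in each treated group, was called higher in the knock-down (1.37-fold, adjusted p = 0.0479). That call was lost in 10 of 18 alternative settings: under median scaling (log2 difference -0.0073), without any 1 control array, without knock-down replicate 1 or 2 (adjusted p up to 0.133 in these), without background correction (0.0502), with the authors' deposited values (0.0694), without the filter on dim probes (0.0539) and with a variance trend (0.0514). The probes ILMN_2590638 and ILMN_3078327 were not called in either comparison.

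Bak1 encodes one of the pore-forming killers. Its probe (ILMN_2945835) read 880, 1059 and 911 units in control, 414, 363 and 263 in knock-down and 330, 287 and 294 in decoy samples. All treated arrays read below all control arrays. The log2 level was 9.02 ± 0.11 (SD, n = 3), 8.54 ± 0.12 and 8.22 ± 0.15. Bak1 fell 1.40-fold in the knock-down (adjusted p = 0.0117, limma) and 1.74-fold in the decoy comparison (adjusted p = 0.00062, limma). Without control replicate 2 the knock-down fall was no longer called (adjusted p = 0.0655). The log2 differences were -1.66 and -1.76 under median scaling, both called lower.

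Bid encodes the killer that links death receptors on the cell surface to the mitochondrion. Its brightest probe (ILMN_3161878) read 6932, 7514 and 6634 units in control, 2157, 2056 and 1001 in knock-down and 2584, 2204 and 2116 in decoy samples. The treated groups lay wholly below control and overlapped each other. The log2 level was 12.04 ± 0.093 (SD, n = 3), 11.12 ± 0.35 and 11.39 ± 0.17. Bid fell 1.89-fold in the knock-down (adjusted p = 0.000551, limma) and 1.56-fold in the decoy comparison (adjusted p = 0.00937, limma). Under median scaling its log2 differences were -2.06 and -1.54. A second Bid probe (ILMN_2757287), above background on the control arrays and on 1 decoy array, was not called, and with the mean over both probes the decoy difference was -0.27 and was not called (adjusted p = 0.17).

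Bad encodes a BH3-only protein that growth signals hold inactive through phosphorylation and 14-3-3 proteins. Its probe (ILMN_1216802) read 1396, 1630 and 1478 units in control, 1048, 714 and 452 in knock-down and 615, 588 and 548 in decoy samples. The log2 level was 9.67 ± 0.073 (SD, n = 3), 9.82 ± 0.16 and 9.34 ± 0.13. Neither the knock-down difference of 0.14 (95% interval -0.15 to 0.44, adjusted p = 0.414, limma) nor the decoy difference of -0.33 (-0.63 to -0.03, adjusted p = 0.0796, limma) was called. Both were called lower under median scaling, at -1.14 (adjusted p = 0.00301) and -1.36 (adjusted p = 0.0014). The decoy difference was called lower in 6 of 20 alternative settings. Besides median scaling these were no background correction (adjusted p = 0.0487), the authors' deposited values (0.0485), array weights (0.0161), a fit of the 2 groups alone (0.0388) and the fit without knock-down replicate 3 (0.0497).

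Knock-down and decoy were also compared directly. Of the 20 probes 1 was called, higher in the knock-down, where 2.68% of all probes were called and 1.06% were called higher, and the groups did not overlap for 5 of 20, against 17.2% of all probes. The called probe was the brightest of Bcl2l11, which was 1.89-fold higher in the knock-down than in the decoy samples (log2 difference 0.92 ± 0.15 SE, adjusted p = 0.00478, limma). The difference was 0.63 (adjusted p = 0.247) under median scaling and, with the mean over the 4 Bcl2l11 probes 0.33 (adjusted p = 0.136), neither of them called. Bad was 0.48 higher in log2 in the knock-down (95% interval 0.18 to 0.78, adjusted p = 0.0850) and Bcl2l2 0.43 higher (0.12 to 0.74, adjusted p = 0.127), and neither was called. For Bcl2a1b the difference was -0.15 (-0.48 to 0.17, adjusted p = 0.645), for Bcl2a1d -0.18 (-0.55 to 0.19, adjusted p = 0.618) and for Mcl1 -0.48 (-0.96 to -0.0024, adjusted p = 0.265). None of the 5 protective members was called by its brightest probe in this comparison by limma, and 2 of them had an unadjusted p below 0.05.

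The choice of scaling changed whether the rises were called, and moved the falls further down. With arrays scaled to a common median, all kept probes together had a median log2 difference of -0.43 for the knock-down and -0.37 for the decoy. Of all called probes 14.6% and 13.9% were then higher, against 48.6% and 46.9% with quantile normalisation. Of the family's 20 probes, 0 were then called higher and 12 lower in the knock-down, and 1 higher and 12 lower in the decoy comparison. Among all 27062 probes, 2244 were then called higher and 13157 lower in the knock-down comparison. In the decoy comparison 1898 were called higher and 11784 lower. Relative to the median of all probes in that scaling, Bcl2a1b stood at -3.89 and -3.56, Bcl2a1d at -3.39 and -3.004 and Mcl1 at -2.15 and -1.48. On the same measure the killers Bak1 stood at -1.24 and -1.40, Bid at -1.63 and -1.18 and Bad at -0.71 and -0.997. Bak1 thus lay close to Mcl1 in the decoy comparison. Bcl2l1 stood at -0.35 and -0.0089. Bcl2l2 stood at 0.17 and -0.06 and Bcl2l11 at 0.32 and -0.37. The fall of the A1 genes, Mcl1, Bak1 and Bid was thus called under both scalings, and the rise of Bcl2l2 and Bcl2l11 under quantile normalisation only. Median scaling moved the brightest probe of every member down, so falls grew and rises shrank. That the falls kept their call is therefore no separate support for them. In bulk samples such as these, fewer cells with a transcript and less of it per cell cannot be told apart.

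**Figure D4:**
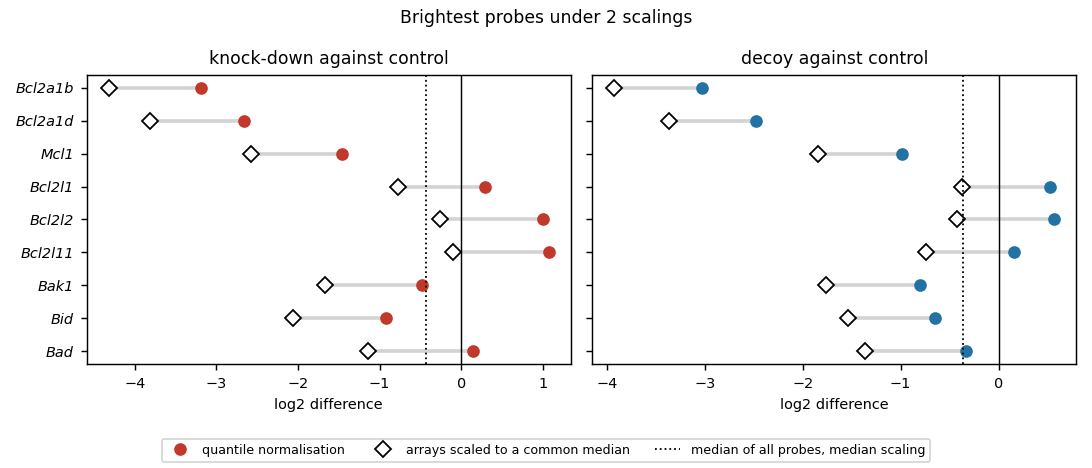
Log2 difference from control of the brightest probe of each member under quantile normalisation (filled circles) and with arrays scaled to a common median (open diamonds), for the knock-down and the decoy comparison, with a dotted line at the median of all probes under median scaling. Every member shifts to the left, and Bcl2l2 and Bcl2l11 in the knock-down end within 0.33 of the dotted line.

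The other genes of the mitochondrial death pathway were read from 6 lists, each gene by its brightest kept probe, against the background of all 13716 genes. Of these, 47.9% were called in the knock-down comparison (26.5% higher and 21.4% lower) and 34.8% in the decoy comparison (18.1% higher and 16.7% lower). The list counts under median scaling stand against an array on which most called probes were then lower, as given above. Among other protective BCL2 genes, 1 of 3 measured rose and 1 fell in each comparison. The uncalled gene, Bcl2l10, was above background on no array, so its missing call does not show that it was unchanged. Bcl2a1c, another A1 copy, fell by at least 1.56-fold in the knock-down (adjusted p = 0.000105, limma) and by 1.99-fold in the decoy comparison. Its 1 other kept probe was not called. Bcl2, the founding protector, rose 1.56-fold and 1.66-fold, but of its 6 other kept probes 1 was called in the same and 2 in the opposite direction in the knock-down. Under median scaling this list gave 0 higher and 1 lower in each comparison, with Bcl2 at -0.26 and 0.05 in log2. None of the 3 other multi-domain killers (Bok, Bcl2l13 and Bcl2l14) was called by limma in either comparison, and at an unadjusted p below 0.05 there were 0 for the knock-down and 1 for the decoy comparison. Under median scaling 2 of the 3 were called lower in each comparison, Bok (-0.86 and -0.88) and Bcl2l13 (-1.42 and -0.88). Bcl2l14 was above background on no array, so its missing call says little.

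Among other BH3-only and related genes, 2 of 5 measured rose and 1 fell in the knock-down, and 1 rose in the decoy comparison. Under median scaling 0 were called higher and 3 lower in each comparison. Bbc3, which encodes the killer PUMA, rose 1.49-fold in the knock-down (adjusted p = 0.0151) while 1 of its 2 other probes moved in the opposite direction. Becn1, better known for its part in autophagy, rose 1.60-fold and 1.46-fold, and its 1 other kept probe was called in the opposite direction in both comparisons. Median scaling turned the sign of Becn1 (-0.48 and -0.37, not called). Bmf was called lower in the knock-down (log2 difference -0.69, adjusted p = 0.00186) and was above background on 1 of 3 control arrays and on no treated array, with no fold given because the bound came out under 1. Bcl2a1a, Bik, Hrk, Bnip3, Endog and Birc3 had no kept probe and were not measured.

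In the mitochondrial machinery that acts downstream, 3 of 11 measured genes rose and 3 fell in each comparison. Under median scaling 0 were called higher, and 7 were called lower with the hairpin and 5 with the decoy. Aifm1, which encodes the flavoprotein AIF of the space between the mitochondrial membranes, fell 3.02-fold (adjusted p = 2.24e-06, limma) and 2.42-fold, and its 1 other kept probe fell as well. Vdac2, a channel of the outer membrane known to bind BAK, fell 2.56-fold and 2.05-fold. Cycs, cytochrome c, fell 1.85-fold and 1.42-fold. Apaf1, the scaffold on which cytochrome c activates caspase-9, rose 1.84-fold and 1.54-fold. Mtch2, a receptor for BID in the outer membrane, rose 1.49-fold and 1.59-fold, and Vdac3 rose 1.49-fold in the decoy comparison. Neither of the 2 other kept Mtch2 probes was called. Under median scaling the signs of Apaf1 (-0.36 and -0.38), Mtch2 (-0.57 and -0.25) and Vdac3 in the decoy comparison (-0.33) turned, and none of these differences was called, while the falls of Aifm1, Vdac2 and Cycs were called in both.

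Of the inhibitor of apoptosis genes, 2 of 6 measured rose and 1 fell in each comparison, against 0 called higher and 2 lower under median scaling. Of the uncalled genes, Xiap and Birc6 were above background on no array, so their missing calls do not show that they were unchanged. Naip2 fell 2.45-fold in the knock-down and by at least 1.75-fold in the decoy comparison, while Naip5 rose 1.62-fold and 1.58-fold. Both encode sensors of bacterial proteins in mouse macrophages, so that their best known role is not the one the list is named for. Birc5, survivin, which also acts in cell division, rose 1.64-fold and 1.48-fold. Under median scaling Birc5 stood at -0.36 and -0.31 and Naip5 at -0.14 and 0.02, and none of these was called.

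Of 11 regulators of BCL2 proteins, 5 rose and 4 fell in the knock-down, and 4 rose and 3 fell in the decoy comparison, against 2 higher and 7 lower, and 2 higher and 8 lower, under median scaling. Ywhaq, a 14-3-3 protein of the family that holds phosphorylated BAD in the cytosol, fell 4.55-fold (adjusted p = 1.25e-07, limma) and 3.39-fold. Ywhaz, another 14-3-3 protein, fell 2.03-fold and 1.41-fold. Huwe1, a ubiquitin ligase for MCL1, fell 1.68-fold and 1.69-fold, and Usp9x, which removes ubiquitin from MCL1, rose by at least 1.33-fold and 1.30-fold. The Usp9x probe was above background on no control array and on 1 array in each treated group. The other kept probes of Ywhaz (1), Huwe1 (1) and Usp9x (2) were not called. Dynll2, the dynein light chain that tethers BMF, rose 3.51-fold (adjusted p = 1.61e-06, limma) and 2.50-fold, and its 1 other kept probe was not called. Bfar rose 2.01-fold and 1.32-fold and was the 1 gene of the 6 lists called between knock-down and decoy, where it was 1.53-fold higher in the knock-down (adjusted p = 0.0194, limma), against 3.00% of all genes called there and 1.36% called higher. Of its 3 other kept probes, 1 was called in the same and 1 in the opposite direction in the knock-down. Under median scaling none of the 6 lists had a called gene between knock-down and decoy. Under median scaling, Dynll2 and Usp9x were the 2 genes of the 6 lists still called higher, in both comparisons. Bbc3 was then called lower in both comparisons (log2 differences -0.68 and -1.08), as was Tmbim6 (-0.59 and -0.58). Bfar was then called lower in the decoy comparison (-0.63) and not in the knock-down (-0.25), and Bag1 was not called (-0.31 and -0.26).

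**Figure D5:**
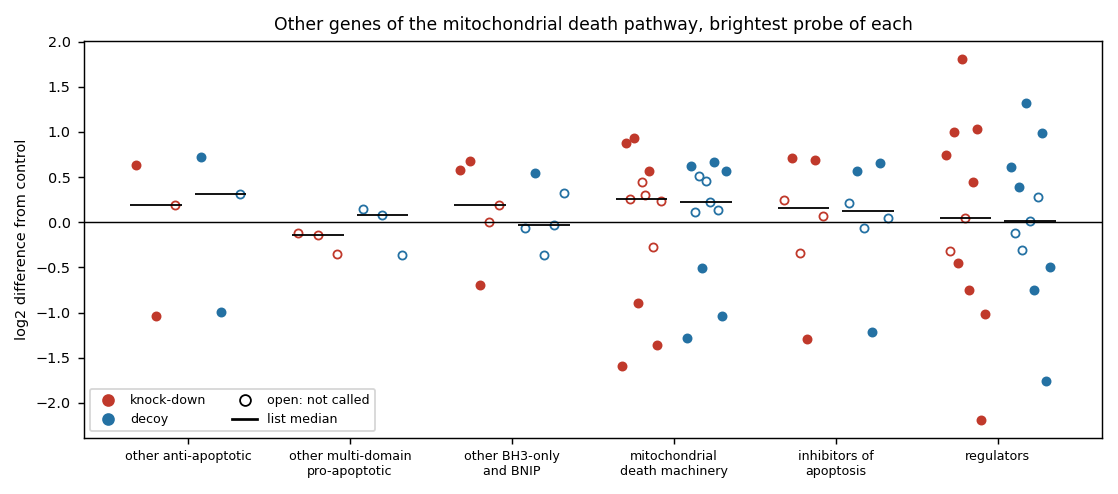
Log2 difference from control of the brightest probe of each measured gene in the 6 lists, with 1 point for each gene and comparison, filled where called, and a line at each list's median. Rises and falls are mixed in the lists, with Ywhaq and Aifm1 among the lowest points and Dynll2 the highest.

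The genes whose pattern over the 9 arrays was most like that of Bcl2a1b were found by the root mean square difference in log2 after each probe was centred on its control mean, among 13715 other genes. The 5 nearest were Wdr89 (0.31), Mcm7 (0.36), Yipf2 (0.41), Ndrg2 (0.46) and Bcl2a1d (0.46). Bcl2a1d was thus the fifth nearest gene, and no other BCL2 family member was among the 5. The brightest Mcm7 probe fell 8.24-fold in the knock-down, but its 1 other kept probe was called in the opposite direction. The same held for Yipf2, which fell 7.75-fold in the knock-down and whose 1 other kept probe was called in the opposite direction there. Of the 2 other kept probes of Wdr89, which fell 8.78-fold in the knock-down, 1 was also called lower and 0 higher.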

How the data were processed

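Expression was measured on 9 Illumina bead arrays, 3 control, 3 knock-down and 3 decoy, grouped by sample title. The authors deposited raw probe intensity values as whole numbers, not background-subtracted or scaled as the values themselves show, and a second table of log2 values of their own. The submitters' processing notes name R 2.9.1, and for the log2 table the normalisation method is not stated in the sources used here. The raw table holds no detection p-values and 2042 blank lines, which were dropped.

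From the raw intensities, background was corrected by normexp with an offset of 50 and values were taken to log2 and quantile normalised in limma 3.58.1 (R 4.3.3). Probes above their array's median on at least 3 arrays were kept (27062 of 45281). Gene symbols came from the platform annotation, in which 34885 probes had 1 symbol, 18 had several and 10378 had none. A model with 3 group means was fitted over all 9 arrays and all kept probes with lmFit and eBayes, and tests were two-sided with Benjamini-Hochberg adjustment over all kept probes. A member's brightest kept probe leads. From each gene list up to 4 genes of smallest p in a comparison, and for likeness the 5 nearest genes, were named by a written rule.

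A probe was above background on an array if its log2 signal lay over 3 SD above the mode, with the SD taken from the lower side of the distribution, which 21.5% to 35.8% of probes did. Where the dimmer group was never above it, a fold is a lower bound: the mean of the brighter group was set against the dim probe's signals, each raised where needed to the lowest signal that counted as above background on that array. No member was saturated at 60000 units. The number of arrays limits the precision. The fit was tested on simulated data of 9 arrays in 3 groups, in which 200 of 27062 probes changed in the knock-down group. It recovered 9% of 1.5-fold and 55% of 2-fold changes, with 4 false calls. Each probe had the same spread in every group there, and far fewer probes changed than were called in the data. These shares therefore do not give the recovery in the data. Promoters came from RefSeq (GRCm38.p6), aligned with Biopython 1.88.

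Same-numbered samples did not deviate together (1 of 9 pairs correlated above 0.1), so the numbers were not taken as pairs. The 20 alternatives were median scaling, no background correction, the log2 table of the authors, both other probe filters, genes in place of probes (by the brightest probe or the mean), blocking on the replicate number, array weights, a variance trend, fits of the compared groups alone and fits without each of the 9 arrays. The members, lists and motifs were chosen with earlier results of these data known.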

Additional observations from a re-analysis of the deposited data

Results flagged for a closer look

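The brightest Bcl2l11 probe differed between the knock-down and the decoy samples by a direct test. Its log2 difference, knock-down minus decoy, was 0.92 (adjusted p = 0.00478, limma), with 3 of 3 knock-down arrays above all 3 decoy arrays. The groups did not overlap, in either direction, for 17.2% of all probes. The call was lost under median scaling (0.63, adjusted p = 0.247, limma) and with the probes of the gene averaged (0.33). No other kept probe of the family was called between knock-down and decoy.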

How the results depend on the processing

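In knock-down against control the 20 family probes gave 8 to 12 calls when 1 array was left out, with 8 without control replicate 2, against 12 with all arrays. In decoy against control they gave 8 to 11, against 9. In knock-down against decoy they gave 1 to 2, with 2 without knock-down replicate 1 (a Bcl2l2 probe, ILMN_1255755, added) and 2 without decoy replicate 1 (a Bcl2l11 probe, ILMN_1229255, added). That comparison gave 2 calls without background correction and 2 with the authors' values, where Bad was added. It gave 0 calls by limma with arrays scaled to a common median and 0 with the probes of each gene averaged, where 1 of 20 probes and 3 of 9 genes had an unadjusted p below 0.05.

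Signs turned under median scaling for Bcl2l1 (-0.78) and Bad (-1.14) in the knock-down and for the brightest probes of Bcl2l2 (-0.26 in knock-down, -0.42 in decoy) and Bcl2l11 (-0.11 and -0.74). They also turned for the Bcl2l11 probes ILMN_1229255 (-0.0073, knock-down) and ILMN_2590638 (-0.49, decoy). With its probes averaged, Bcl2l2 turned to -0.0718 for the knock-down and -0.0708 for the decoy. A sign counts as turned where the value was called with or without the change of setting. The cause was not tested. With the replicate number as a block the counts were 12, 9 and 1, as without it, and no call changed; among 18 matches of an array to another group, the best had the same number in 8. Of 1125 probe results under the alternatives, 1065 kept their call or lack of it. That number includes uncalled results whose sign changed. Probes near background, most second probes among them, have little signal to show a change.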
